A study of Rattus norvegicus with 9 samples.

Results

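The collagen chain genes were examined in RNA sequencing libraries of rat arteries. These are the genes whose symbol has the form Col, a type number, the letter a and a chain number, with at least 10 counts summed over the 9 libraries. By this rule 41 of the 30452 features of each count table were members. One further gene of this form, Col26a1, had 8 counts in all and stayed below the limit, and Col25a1 with 10 counts was the member closest to it. The arteries came from rat offspring aged 3 to 5 months whose mothers had received standard diet during pregnancy. The 3 groups of 3 libraries were mesenteric arteries of control offspring (mothers on ordinary water; MAC, replicates 1, 2 and 3), mesenteric arteries of offspring of mothers given 20% sucrose water (MAH, replicates 1, 2 and 3) and pulmonary arteries of control offspring (PAC, replicates 1, 2 and 4). Pulmonary arteries of high-sucrose offspring were not analysed here. Strain, sex and the number of litters were not in the sources used here, and the labels do not say that libraries of a group came from separate animals. The p-values below therefore measure only the spread between these libraries, which may be technical. Values for a group are always given in the order of its replicate numbers.

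Collagens are extracellular proteins in which 3 chains wind into a triple helix, and each chain has a gene of its own. Fibrillar collagens, chiefly types I and III, form the tensile fibres of the arterial adventitia and media and are made mainly by fibroblasts and smooth muscle cells. Type IV collagen forms the sheet-like network of the basement membranes under the endothelium and around each smooth muscle cell. Type VI collagen forms beaded microfilaments at the border between cells and fibres, type VIII a hexagonal network found in vessels, and the fibril-associated collagens coat the fibres. The members were sorted into 8 fibrillar chains, 6 fibril-associated chains, 8 network and beaded filament chains, 7 basement membrane chains, 7 chains known best from cartilage, and 5 membrane and other chains.

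The sequences before the transcription starts of 7 members are shown because the results below turn on these chains. Col4a1 and Col4a2 encode the chains of the common type IV trimer and stood head to head, with 76 bases between their starts. They were the only such pair within 5000 bases among the 32 members with a RefSeq start. Col11a1, Col8a1, Col4a3, Col16a1 and Col28a1 had pulmonary levels below every mesenteric library. So had Col14a1, which is named only. The sequences are from RefSeq (build GRCr8), 5′ to 3′ on the plus strand, or for Col28a1 on the minus strand, and capitals mark matches on either strand to the TATA box (TATAAA), the CCAAT box (CCAAT) or the core of the GC box (GGGCGG). The first is the whole stretch between the starts of Col4a1 and Col4a2, and the others are the 100 bases before each start. A RefSeq start need not be the start used in these arteries, and that of Col28a1 may lie inside the gene, as described below.
Col4a1 to Col4a2, chr16:84885521-84885596: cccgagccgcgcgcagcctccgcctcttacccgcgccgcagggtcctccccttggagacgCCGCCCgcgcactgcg
Col11a1, chr2:204509036-204509135: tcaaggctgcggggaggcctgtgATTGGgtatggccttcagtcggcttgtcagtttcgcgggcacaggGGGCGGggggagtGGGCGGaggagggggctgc
Col8a1, chr11:56246682-56246781: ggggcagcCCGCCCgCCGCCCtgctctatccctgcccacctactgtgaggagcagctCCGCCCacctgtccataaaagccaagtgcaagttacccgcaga
Col4a3, chr9:91323890-91323989: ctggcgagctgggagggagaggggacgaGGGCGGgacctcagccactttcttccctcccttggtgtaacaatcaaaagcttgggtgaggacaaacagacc
Col16a1, chr5:147672996-147673095: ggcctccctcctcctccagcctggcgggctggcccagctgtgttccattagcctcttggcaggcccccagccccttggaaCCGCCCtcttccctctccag
Col28a1, chr4:37184668-37184767: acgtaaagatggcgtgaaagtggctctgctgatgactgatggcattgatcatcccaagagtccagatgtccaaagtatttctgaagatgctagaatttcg

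The stretches of Col4a1 to Col4a2, Col11a1, Col8a1, Col4a3 and Col16a1 held GGGCGG on one strand or the other, and that of Col28a1 held none of the 3 motifs. The Col28a1 stretch has a reading frame without a stop codon over its whole length. It may therefore be coding sequence and not a promoter, so its lack of motifs says nothing about the Col28a1 promoter. Col28a1 was kept in the counts that follow. The 32 members with a RefSeq start were matched by symbol, out of 41. In the 250 bases before the start, GGGCGG was found for 18 of the 32 (56.2%), against 30.5% of all 33469 RefSeq windows. TATAAA was found for 4 (12.5%, against 12.9%) and CCAAT for 11 (34.4%, against 34.0%). The members entered with 1 window per symbol, and the background with every RefSeq window, whether or not its gene was expressed here. Col4a1 and Col4a2, whose windows overlap, were each counted. The 2 sets are therefore not alike, and their shares were not tested. Both strands were searched and each motif was counted on its own, so that matches of different motifs may overlap. A match describes the letters in this window only.

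The libraries held 10388231 to 15420546 counts. Defining markers of smooth muscle, fibroblasts and endothelium were detected in every library, and several libraries stood apart by their cell type markers. Pulmonary replicate 4 had the lowest summed level of 7 smooth muscle markers (3123 CPM, counts per 1000000 library counts, against 9779 to 37819 in the others) and of 8 adventitial fibroblast markers (1820 against 4382 to 8661). It also had the highest levels of 7 lymphocyte markers (1477 CPM against at most 11.7) and 6 lung epithelium markers (698 against at most 61.6). Pulmonary replicate 2 held 15045 CPM of 8 cardiac muscle markers, against 1559 in pulmonary replicate 4 and at most 112 elsewhere, and 142 CPM of 10 cartilage markers, against 6.98 to 30.4. Among the mesenteric libraries, control replicate 2 had the lowest smooth muscle sum. In such whole-tissue libraries fewer cells of a type and less RNA per cell cannot be told apart. The part these markers have in the collagen results was not tested.

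Collagen chains made up from 0.459% to 1.44% of all counts. Their share was 1.15%, 0.890% and 1.44% in the mesenteric controls, 1.41%, 0.856% and 0.979% with maternal sucrose, and 0.945%, 1.06% and 0.459% for the pulmonary artery. The groups overlapped, and pulmonary replicate 4 was lowest. That library also had the highest share of counts from the mitochondrial genome, 27.5%, against at most 20.9% in the others. With the genes of the mitochondrial genome left out of the totals, pulmonary replicate 4 still had the lowest collagen share. The part of the mitochondrial counts in the low collagen share was not tested. The counts are not divided by transcript length, so levels are compared here between libraries and not between genes.

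**Figure D1:**
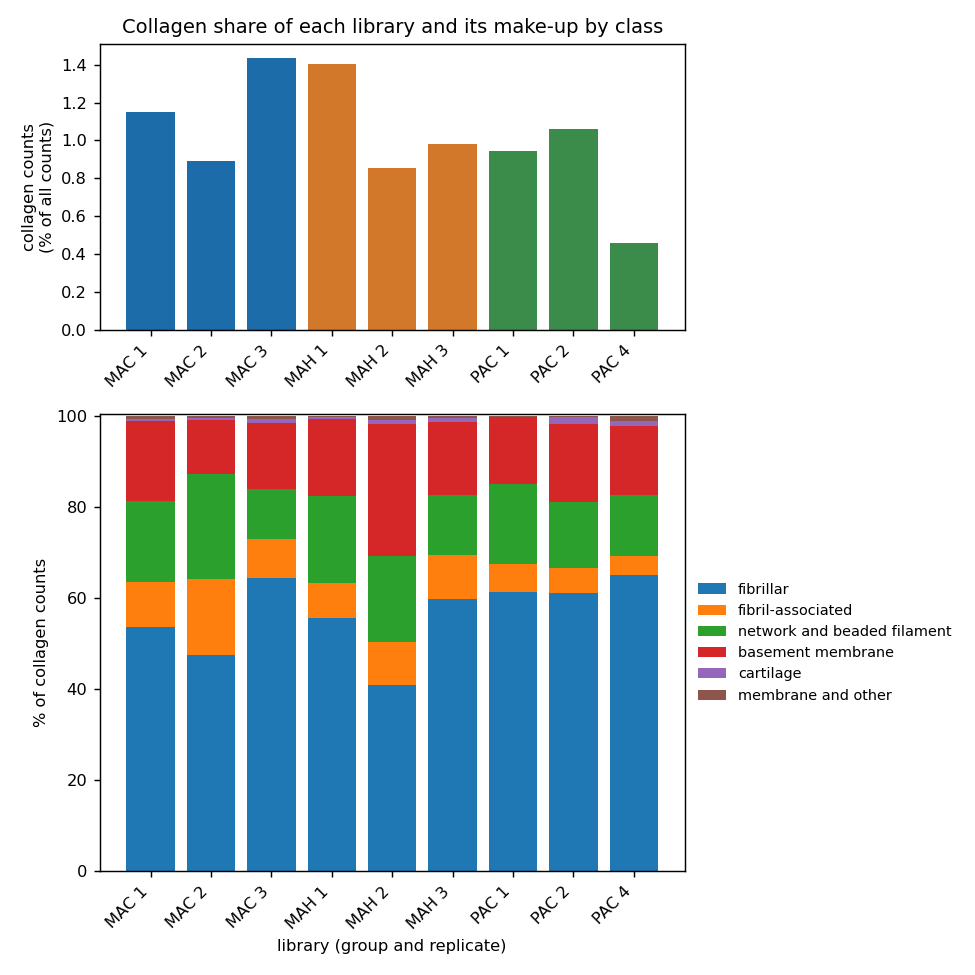
Counts of each collagen class as a percent of all collagen counts, for each of the 9 libraries. Fibrillar chains took the largest share in every library, from 41.0% in mesenteric high-sucrose replicate 2 to 65.0% in pulmonary replicate 4.

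Fibrillar chains held 47.5% to 64.5% of the collagen counts in the mesenteric controls, 41.0% to 59.9% in the high-sucrose libraries and 61.1% to 65.0% in the pulmonary libraries. The fibril-associated share was 8.58% to 16.7% in the mesenteric controls and 7.67%, 9.52% and 9.54% in the high-sucrose libraries. In the pulmonary libraries it was 6.31%, 5.67% and 4.22%, below all 6 mesenteric libraries. Most of this class was Col14a1, whose values follow. The basement membrane share ranged from 12.0% to 17.7% in 8 libraries and was 29.0% in high-sucrose replicate 2. The network share ranged from 11.0% to 23.0%, with both extremes among the mesenteric controls. Cartilage chains held at most 1.59% (pulmonary replicate 2), and membrane and other chains at most 1.03% (pulmonary replicate 4).

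**Figure D2:**
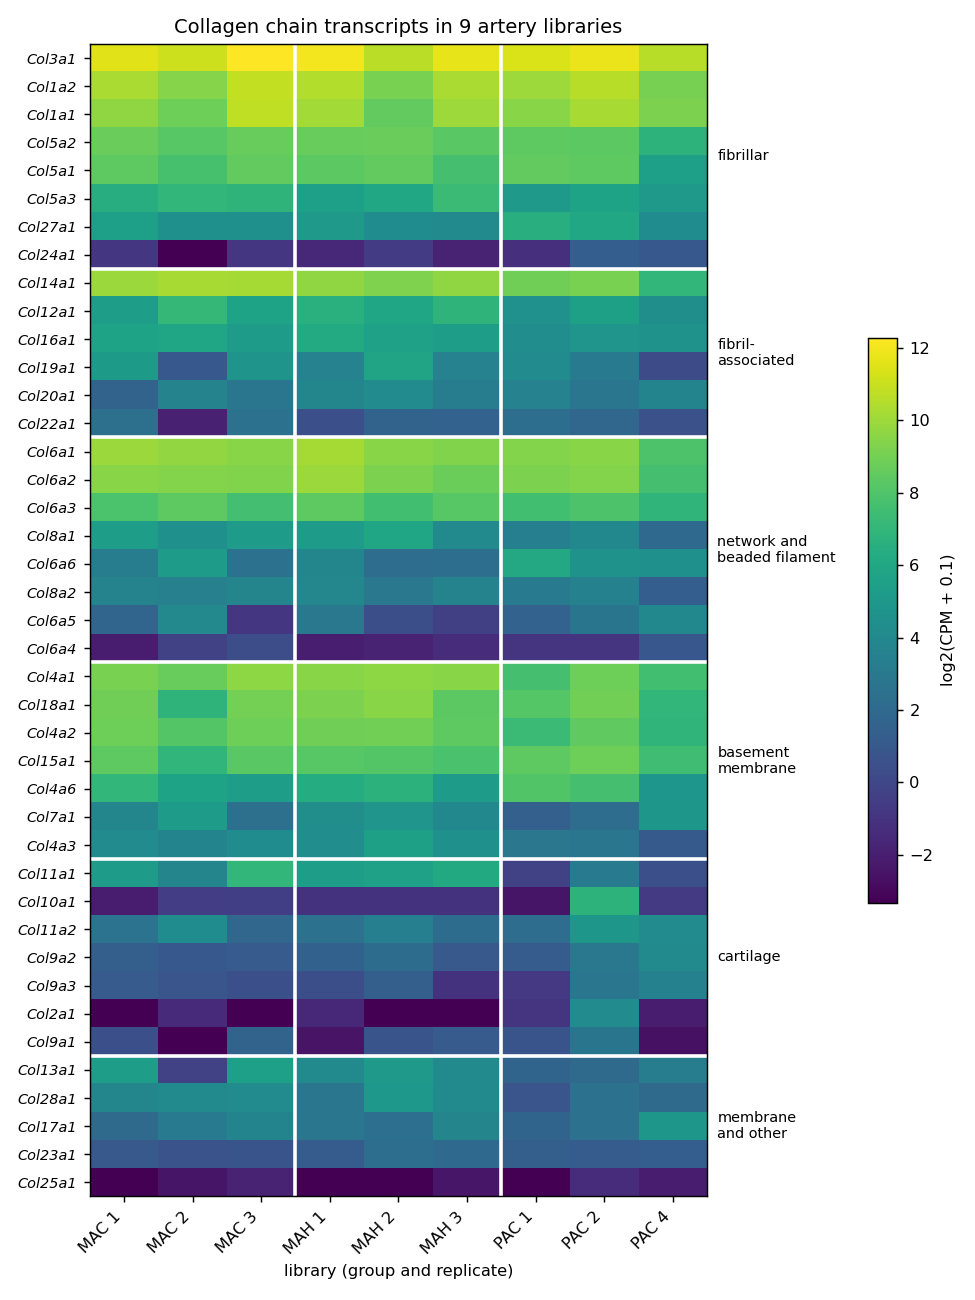
Level of each of the 41 collagen chains (rows, grouped by class) in each library (columns), with colour giving log2 of the CPM plus a small constant, read along rows only. In the Col10a1 and Col2a1 rows pulmonary replicate 2 stands apart from the other 8 libraries, and in the Col11a1 row the 3 pulmonary libraries are the darkest.

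Among the fibrillar chains, Col3a1, the chain of type III collagen, was at 3130, 2233 and 4995 CPM in the mesenteric controls, 4053, 1664 and 3388 in the high-sucrose libraries and 2723, 3573 and 1593 in the pulmonary libraries. Col1a1, the main chain of type I collagen, was at 834, 458 and 1794 CPM, then 1099, 368 and 1013, then 741, 1225 and 583. Col1a2, its partner chain, was at 1240, 702 and 1884 CPM, then 1408, 559 and 1285, then 1033, 1562 and 548. In all 3 chains, control replicate 3 was the highest library, the low values fell in mesenteric control replicate 2, high-sucrose replicate 2 and pulmonary replicate 4, and the 3 groups overlapped. Type V collagen, which sits inside type I fibrils and sets their width, has 3 chains among the members. Col5a2 was at 426, 305 and 396 CPM, 398, 426 and 319, and 347, 327 and 110, and Col5a1 ranged from 45.4 CPM in pulmonary replicate 4 to 378 in pulmonary replicate 1. Col5a3, the third chain, was at 84.7, 126 and 116 CPM in the mesenteric controls, 45.1, 62.7 and 159 in the high-sucrose libraries and 33.0, 53.9 and 33.6 in the pulmonary libraries. The pulmonary values of Col5a3 lay below all 3 mesenteric controls, and 1 of them lay above high-sucrose replicate 1. Col27a1 ranged from 17.9 to 89.7 CPM, with pulmonary replicates 1 and 2 highest, and Col24a1 stayed at or below 2.44 CPM.

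The fibril-associated chains were led by Col14a1, which binds to the surface of type I fibrils. Col14a1 was at 1001, 1223 and 1140 CPM in the mesenteric controls, 818, 624 and 838 in the high-sucrose libraries and 471, 571 and 128 in the pulmonary libraries. The 3 groups did not overlap in this order, and pulmonary replicate 4 was far below the rest. Col12a1, the closest relative of Col14a1, was at 42.5, 136 and 54.0 CPM, 97.5, 59.6 and 111, and 23.9, 46.2 and 21.7. Here pulmonary replicate 2 reached into the mesenteric range. Col16a1, a fibril-associated chain of smooth muscle and fibroblasts, was at 52.5, 57.4 and 39.4 CPM, 74.3, 48.7 and 43.7, and 20.4, 27.5 and 24.9. Every pulmonary value of Col16a1 lay below every mesenteric value, and the pulmonary values differed little from each other, pulmonary replicate 4 included. Col19a1 spread widely within groups, at 37.0, 1.83 and 27.4 CPM, 12.2, 54.9 and 11.8, and 18.5, 8.32 and 1.10. Col20a1 ranged from 3.05 to 18.0 CPM and Col22a1 from 0.174 to 5.84, both with overlapping groups.

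**Figure D3:**
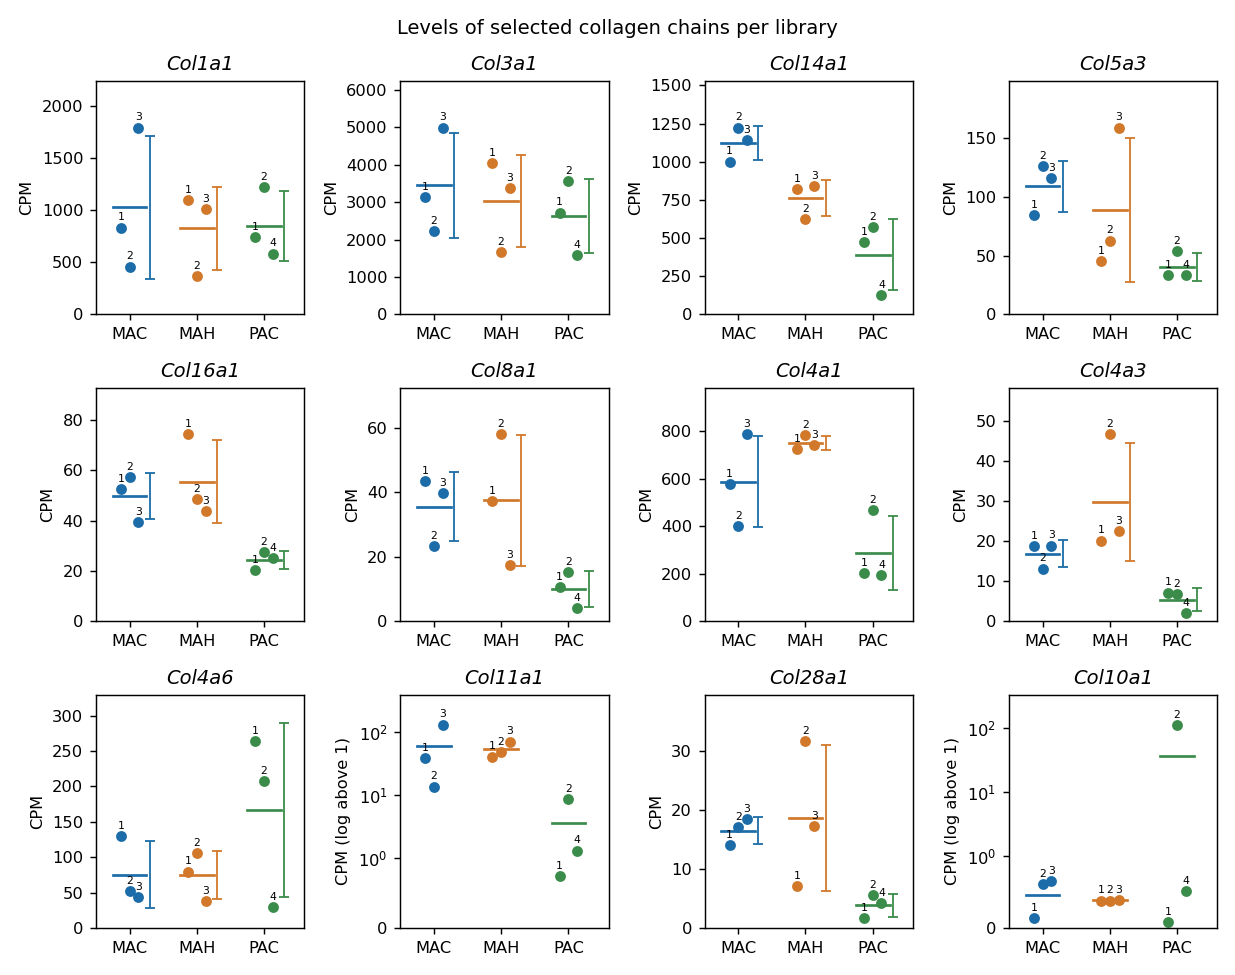
Level in CPM of selected chains by group, with 1 numbered dot per library, lines for the group mean and bars for the SD (n = 3; no bar in the Col10a1 and Col11a1 panels, whose axis is linear to 1 and logarithmic above). Col14a1 lies in 3 separate ranges, and Col10a1 stands at 108 in pulmonary replicate 2 alone.

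Of the network and beaded filament chains, Col6a1 was at 965, 871 and 721 CPM in the mesenteric controls, 1146, 735 and 647 in the high-sucrose libraries and 659, 735 and 240 in the pulmonary libraries. Col6a2 was at 739, 671 and 651 CPM, 990, 600 and 431, and 591, 664 and 207, and Col6a3 at 236, 337 and 198 CPM, 348, 192 and 301, and 192, 240 and 118. These 3 chains make up the common type VI molecule, and their groups overlapped, with pulmonary replicate 4 lowest in each. Col6a3 had the smallest spread of all chains over the 9 libraries, with a highest value 2.95 times the lowest. Col8a1, the chain of the vascular network collagen type VIII, was at 43.3, 23.2 and 39.7 CPM, 37.3, 57.8 and 17.3, and 10.5, 15.3 and 3.96. All 3 pulmonary values of Col8a1 lay below the lowest mesenteric value, which was high-sucrose replicate 3. Its partner chain Col8a2 ranged from 2.47 to 15.0 CPM with overlapping groups. The alternative type VI chains Col6a5 and Col6a6 reached 16.2 and 69.1 CPM, and Col6a4 stayed at or below 1.82 CPM.

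Of the basement membrane chains, Col4a1 was at 576, 402 and 786 CPM in the mesenteric controls, 725, 782 and 741 in the high-sucrose libraries and 203, 466 and 193 in the pulmonary libraries. Col4a2 was at 457, 279 and 462 CPM, 477, 494 and 347, and 161, 351 and 119. In both chains pulmonary replicates 1 and 4 lay below all mesenteric libraries, and pulmonary replicate 2 lay above mesenteric control replicate 2. Col4a3, a chain of the alternative type IV trimer known from kidney and lung basement membranes, was at 18.7, 13.1 and 18.8 CPM, 20.1, 46.6 and 22.5, and 7.09, 6.81 and 2.08. The 3 groups did not overlap for Col4a3, with the high-sucrose libraries highest and the pulmonary libraries lowest. Col4a6, a chain of the type IV trimer of smooth muscle basement membranes, was at 130, 52.5 and 43.1 CPM, 79.7, 106 and 38.4, and 264, 207 and 29.1. Pulmonary replicates 1 and 2 were the highest of the 9 libraries for Col4a6 and pulmonary replicate 4 was the lowest.

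Types XV and XVIII collagen carry sugar chains and attach basement membranes to the tissue, and type XVIII yields the fragment endostatin. Col15a1 was at 344, 126 and 313 CPM, 305, 275 and 223, and 347, 459 and 179. Col18a1 was at 475, 115 and 517 CPM, 601, 726 and 321, and 286, 497 and 128. Mesenteric control replicate 2 was the lowest library for both, and the groups overlapped. Col7a1, the anchoring fibril chain, ranged from 2.64 to 37.2 CPM.

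The chains known best from cartilage were mostly low, and 1 library stood out. Col10a1, the marker of hypertrophic cartilage cells, was at 108 CPM (1505 counts) in pulmonary replicate 2 and at 0.0824 to 0.649 CPM (1 to 8 counts) in the other 8 libraries. Col2a1, the main cartilage fibril chain, had 253 counts in pulmonary replicate 2 and 0 to 5 counts in the others. The same library held the highest level of 9 of 10 other cartilage markers, among them Acan at 22.2 CPM, Chad at 36.9 and Matn1 at 15.5, while Matn1, Matn3, Cnmd and Ucma were at 0 in some libraries. Col11a1, a minor fibril chain of cartilage and some soft tissues, followed another order, at 38.8, 13.5 and 130 CPM in the mesenteric controls, 40.4, 48.2 and 70.1 in the high-sucrose libraries and 0.742, 8.53 and 1.30 in the pulmonary libraries. Every pulmonary value of Col11a1 was below every mesenteric value, and among the pulmonary libraries replicate 2, with the cartilage markers, was the highest. Col11a2, the partner chain, was at 6.03, 18.9 and 3.53 CPM, 5.80, 10.5 and 4.44, and 4.61, 30.4 and 18.8. Col9a2, a chain of the type IX collagen that decorates cartilage fibrils, was at 2.58, 1.83 and 2.13 CPM, 2.75, 4.49 and 1.93, and 2.22, 7.60 and 17.7. Pulmonary replicates 2 and 4 were highest for Col9a2, and also for its partner Col9a3 at 6.88 and 11.8 CPM against at most 2.58 elsewhere, while pulmonary replicate 1 lay within the mesenteric range. Col9a1 reached 6.60 CPM in pulmonary replicate 2 and stayed at or below 3.06 elsewhere.

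Among the membrane and other chains, Col28a1, a chain known best from peripheral nerve, was at 14.0, 17.0 and 18.4 CPM in the mesenteric controls, 7.02, 31.6 and 17.3 in the high-sucrose libraries and 1.65, 5.59 and 4.16 in the pulmonary libraries. Every pulmonary value of Col28a1 was below every mesenteric value. The summed level of 6 Schwann cell markers was 110, 135 and 150 CPM, 79.2, 179 and 189, and 78.5, 142 and 71.3 in the same order, and its part in the result was not tested. Col13a1, a transmembrane collagen of cell contacts, was at 42.7, 0.698 and 45.6 CPM, 17.4, 35.4 and 18.0, and 3.21, 4.09 and 9.48. Mesenteric control replicate 2 was the lowest library for Col13a1, below the pulmonary values. Col17a1, the hemidesmosome collagen of epithelia, ranged from 3.21 to 13.4 CPM in 8 libraries and was 30.3 in pulmonary replicate 4, the library with the most lung epithelium markers. Col23a1, a transmembrane collagen, was at 1.99, 1.48 and 1.58 CPM, 2.21, 4.96 and 3.96, and 2.55, 2.22 and 2.40. The control values of Col23a1 lay below all others. Col25a1 stayed at or below 0.287 CPM.

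Ratios between chains were steadier for some pairs than the levels of the chains themselves. The ratio of Col6a1 to Col6a2 counts ranged from 1.11 to 1.5 over the 9 libraries, a 1.36-fold range. Col3a1 to Col1a2 ranged from 2.29 to 3.18, which is 1.39-fold, although Col3a1 and Col1a2 belong to different molecules of the same fibres. Col1a1 to Col1a2 ranged from 0.653 to 1.06 and Col4a1 to Col4a2, the pair shown head to head above, from 1.26 to 2.14. These ranges, 1.63-fold and 1.69-fold, were narrower than the 2.95-fold range of the steadiest single chain. Col5a1 to Col5a2 ranged from 0.413 in pulmonary replicate 4 to 1.09 in pulmonary replicate 1. Col8a1 to Col8a2 spread 6.12-fold, at 3.52, 2.08 and 2.85 in the mesenteric controls, 2.48, 7.77 and 1.36 in the high-sucrose libraries and 1.27, 1.35 and 1.61 in the pulmonary libraries.

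Of 3 further pairs, Col11a1 to Col1a1 separated the arteries and the others overlapped. Col11a1 to Col1a1 was 0.00100, 0.00697 and 0.00223 in the pulmonary libraries and at least 0.0295 in every mesenteric library. Col4a6 to Col4a1 was 1.30, 0.445 and 0.151 in the pulmonary libraries and 0.0519 to 0.225 in the mesenteric libraries, with only pulmonary replicate 4 inside the mesenteric range. Col14a1 to Col1a1 was 1.20, 2.67 and 0.636 in the mesenteric controls, 0.745, 1.70 and 0.827 in the high-sucrose libraries and 0.636, 0.466 and 0.220 in the pulmonary libraries. The pairs were chosen with the values known, so these ratios are a description.

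**Figure D4:**
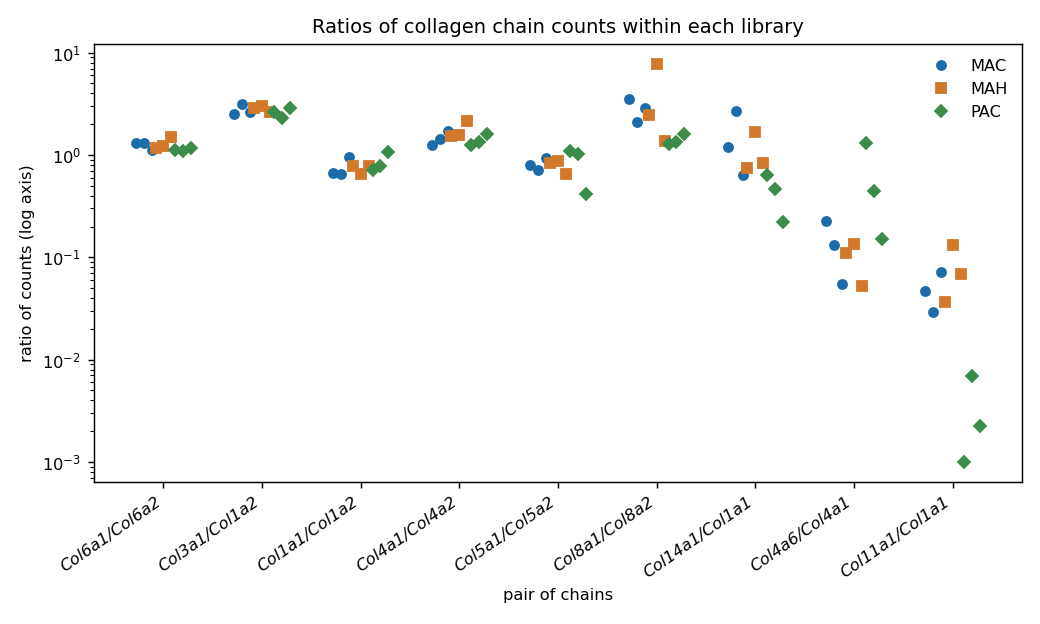
Ratio of the counts of 2 collagen chains in each library (log scale), by group. The type VI and type I to III pairs stay within a narrow band, and the pulmonary libraries lie lowest for Col11a1 to Col1a1.

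The comparison of MAH with MAC asks whether gene expression in the mesenteric artery differed with the mother's sucrose intake. No collagen chain passed an adjusted p under 0.05 (edgeR quasi-likelihood test, Benjamini-Hochberg adjustment over 13995 features), as was so for every feature (0%). The 36 chains tested had a median log2 fold change of −0.01 (16 higher, 20 lower), against 0.0024 over all features. At an unadjusted p under 0.05, 1 chain was higher, Col23a1, and 1 lower, Col14a1, each 2.78% of the chains against 0.865% and 1.13% of all features. DESeq2 and limma-voom also called none.

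Col14a1 averaged 1121 ± 112 CPM in the controls and 760 ± 118 in the high-sucrose libraries (SD, n = 3), a log2 fold change of −0.56 ± 0.23 (SE; edgeR adjusted p = 1.00). Col23a1 averaged 1.68 ± 0.268 and 3.71 ± 1.39 CPM, a log2 fold change of 1.13 ± 0.43 (edgeR adjusted p = 1.00). In both chains the groups did not overlap. Of the 36 chains, 2 lay wholly above the controls, Col23a1 and Col4a3 (5.56%, against 2.82% of all features), and 1 wholly below, Col14a1 (2.78%, against 3.23%). Col4a3 averaged 16.9 ± 3.27 and 29.7 ± 14.7 CPM, a log2 fold change of 0.82 ± 0.36 (edgeR adjusted p = 1.00), and the highest value was in replicate 2, without which it was 0.35. Beside these values, all 8 adventitial fibroblast markers were lower in the high-sucrose libraries (median log2 fold change −0.36), with none called, and their part in the Col14a1 difference was not tested. Of 6 adipocyte markers 5 were higher and 1 lower (median log2 fold change 0.68), with none called. Their summed level was highest in high-sucrose replicate 2 (1611 CPM), and their part in the collagen levels was not tested.

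By class, 6 of 7 basement membrane chains were higher (median log2 fold change 0.21) and 6 of 7 fibrillar chains lower (−0.23). Fibril-associated chains had 4 of 6 higher, network chains 2 of 7, cartilage chains 1 of 5 and membrane and other chains 2 of 4. Col4a1 averaged 588 ± 193 and 749 ± 29.5 CPM (log2 fold change 0.35 ± 0.28, edgeR adjusted p = 1.00), and the difference was 0.14 without control replicate 2 and 0.62 without control replicate 3. For 3 abundant chains the differences were smaller than their errors, at −0.31 ± 0.59 for Col1a1, −0.19 ± 0.43 for Col3a1 and −0.02 ± 0.28 for Col6a1 (log2 fold change ± SE). For Col1a1 and Col3a1 the sign turned without control replicate 3 (0.36 and 0.18), and for all 3 chains without high-sucrose replicate 2 (0.05, 0.12 and 0.08).

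The comparison of PAC with MAC sets the 2 arteries of control offspring side by side. It uses the same control mesenteric libraries as the comparison above, so the 2 comparisons are not independent. No collagen chain passed an adjusted p under 0.05 (edgeR, 14315 features, of which 0.014% passed), while 24 of the 36 chains tested were lower in the pulmonary artery and 12 higher. The median log2 fold change of the chains was −0.45, against 0.06 over all features. It was −0.21 without pulmonary replicate 4, the library low in smooth muscle and fibroblast markers, −0.21 without mesenteric control replicate 3, −0.73 without pulmonary replicate 2 and −0.49 when pulmonary replicate 1 alone stood for that artery. At an unadjusted p under 0.05, 8 chains were lower (22.2%, against 4.3% of all features) and 1 was higher (2.78%, against 4.23%). With DESeq2, 5 of the 36 chains passed the adjusted threshold, all lower, against 408 of 14315 features, of which 235 were lower. The chains were Col5a3, Col28a1, Col11a1, Col16a1 and Col8a1 (DESeq2 adjusted p = 0.00297, 0.00327, 0.00670, 0.0197 and 0.0464). No chain was called by limma-voom, which called 33 features.

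**Figure D5:**
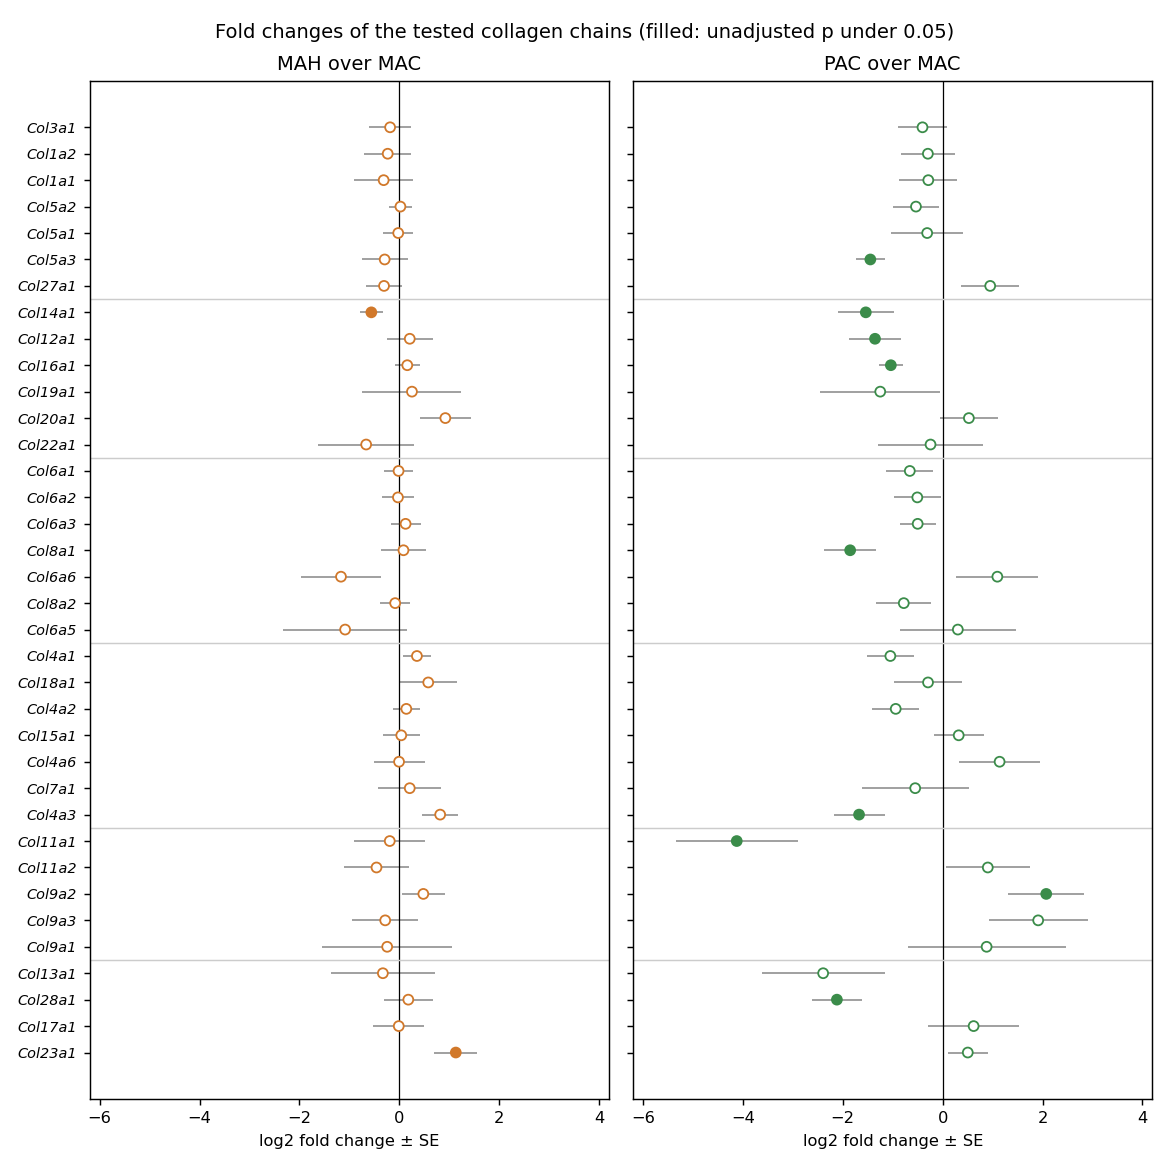
Log2 fold change of each tested collagen chain against the mesenteric controls, for the high-sucrose mesenteric and the pulmonary libraries, with bars for the SE and filled points at an unadjusted p under 0.05. Most pulmonary points lie left of 0, and none of the points passed the adjusted threshold.

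The chains with the smallest p were lower in the pulmonary artery. Col5a3 averaged 109 ± 21.6 CPM in the mesenteric controls and 40.2 ± 11.9 in the pulmonary libraries (SD, n = 3), a log2 fold change of −1.45 ± 0.29 (SE; edgeR adjusted p = 0.272). Col28a1 averaged 16.4 ± 2.25 and 3.80 ± 2.00 CPM, a log2 fold change of −2.12 ± 0.49 (edgeR adjusted p = 0.353). Col16a1 averaged 49.8 ± 9.29 and 24.3 ± 3.59 CPM, a log2 fold change of −1.04 ± 0.24 (edgeR adjusted p = 0.364). These 3 chains belong to 3 classes, and in each the difference of the means exceeded the SD of either group. Col8a1 had a log2 fold change of −1.85 ± 0.52 (edgeR adjusted p = 0.437) and Col4a3 of −1.67 ± 0.51 (adjusted p = 0.469). Col11a1 had the largest difference of any tested chain, −4.12 ± 1.22 (edgeR adjusted p = 0.462), with means of 60.6 ± 61.0 and 3.52 ± 4.35 CPM whose SDs were as large as the means. The fibril-associated chains Col14a1 and Col12a1 followed at −1.54 ± 0.57 and −1.35 ± 0.53 (adjusted p = 0.542 and 0.560). Without mesenteric control replicate 2, its highest library, Col12a1 was at −0.67. The one chain higher at this level was Col9a2, with 2.18 ± 0.378 and 9.16 ± 7.84 CPM and a log2 fold change of 2.07 ± 0.76 (edgeR adjusted p = 0.540), which was 1.16 without pulmonary replicate 4.

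In 7 of the 36 chains every pulmonary library lay below every mesenteric control (19.4%, against 7.54% of all features), namely Col4a3, Col5a3, Col8a1, Col11a1, Col14a1, Col16a1 and Col28a1. Only Col23a1 lay wholly above (2.78%, against 6.5%). With the high-sucrose libraries included, 6 of 36 chains, the same ones without Col5a3, lay below all 6 mesenteric libraries (16.7%, against 4.6% of 14592 features), and 0 lay above all 6 (against 3.23%). Pulmonary replicate 4 was the lowest of the 9 libraries for 16 of the 41 chains, mesenteric control replicate 2 for 8 and pulmonary replicate 1 for 7. All 8 adventitial fibroblast markers and all 7 blood endothelium markers were also lower in the pulmonary libraries (median log2 fold change −0.90 and −0.66), with none called, and their part in the collagen differences was not tested.

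By class, 6 of 7 fibrillar chains were lower (median log2 fold change −0.31), as were 5 of 6 fibril-associated (−1.14), 5 of 7 network (−0.51) and 5 of 7 basement membrane chains (−0.55). Of the 5 cartilage chains tested 4 were higher (0.90). Col11a2 and Col9a1 were highest in pulmonary replicate 2, where the cartilage markers summed to 142 CPM. Col9a2 and Col9a3 were highest in pulmonary replicate 4, where that sum was 19.0 CPM. The part of the cartilage markers in these differences was not tested. Membrane and other chains were split 2 and 2. The differences of Col1a1 and Col3a1 were smaller than their SE, with Col1a1 at −0.29 ± 0.58, Col3a1 at −0.40 ± 0.50 and Col6a1 at −0.66 ± 0.47 (log2 fold change ± SE; edgeR adjusted p = 0.897, 0.828 and 0.709). Without mesenteric control replicate 3 the sign for Col1a1 turned to 0.38 and Col3a1 was at −0.04. Without pulmonary replicate 4 Col1a1, Col3a1 and Col6a1 were at −0.07, −0.14 and −0.29. Without pulmonary replicate 2 Col1a1 and Col3a1 were at −0.64 and −0.69, and without mesenteric control replicate 2 at −0.65 and −0.64. Within type IV collagen the chains differed in direction. Col4a1 and Col4a2, which share the stretch between their starts shown above, were at −1.05 ± 0.47 and −0.94 ± 0.47 (adjusted p = 0.601 and 0.610), and Col4a6 was at 1.14 ± 0.80 (adjusted p = 0.705). Without pulmonary replicate 2 the first 2 were at −1.58 and −1.52. Col4a6 was at 0.64 without pulmonary replicate 1 and 1.78 without mesenteric control replicate 1. Col27a1, a fibrillar chain, was at 0.95 ± 0.58 (adjusted p = 0.665), or 0.49 without pulmonary replicate 1. Col13a1 was at −2.39 ± 1.23 (edgeR adjusted p = 0.623). With mesenteric control replicate 2 and pulmonary replicate 4 both left out, Col13a1 was the one chain called, at −3.60 (edgeR adjusted p = 0.0157). That alternative was chosen after seeing the data and called 105 of 14271 features. The libraries left out held the lowest control value (0.698 CPM) and the highest pulmonary value (9.48 CPM) of Col13a1. Their removal by itself widens the difference, so the call is no support for it.

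Procollagen chains are hydroxylated, glycosylated and folded in the endoplasmic reticulum, exported, trimmed and cross-linked, and 5 lists of genes for these steps and for the partners of collagen were counted beside the chains. None of their genes passed the adjusted threshold in either comparison (edgeR). Of 19 tested genes of folding and modification, 10 were higher and 9 lower with maternal sucrose (median log2 fold change 0.02), and 5 were higher and 14 lower in the pulmonary artery (−0.25). With maternal sucrose, Serpinh1, the collagen chaperone HSP47, was at 708, 481 and 589 CPM in the controls and 1291, 457 and 1029 in the high-sucrose libraries, a log2 fold change of 0.64 ± 0.39 that was 0.34 without high-sucrose replicate 1 and 0.98 without high-sucrose replicate 2. Plod1, a lysyl hydroxylase, was at 0.41 ± 0.20, and Fkbp7, a prolyl isomerase, at −0.45 ± 0.17 with groups that did not overlap (edgeR adjusted p = 1.00). In the pulmonary artery, P3h2, a prolyl hydroxylase that acts on type IV collagen, was at 29.7, 30.7 and 6.36 CPM against 96.7, 32.1 and 95.2 in the mesenteric controls, a log2 fold change of −1.76 ± 0.68 (adjusted p = 0.552). Tmem38b, an ion channel of the endoplasmic reticulum, was at −1.12 ± 0.41, and Colgalt2, a collagen galactosyltransferase, at −1.03 ± 0.47.

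Of 17 genes of export, processing and cross-linking, 7 were higher and 10 lower with maternal sucrose and 6 higher and 11 lower in the pulmonary artery. With maternal sucrose, the cross-linking enzyme Lox was at −0.41 ± 0.34, the coat protein gene Sec23a at −0.21 ± 0.16 and the procollagen proteinase enhancer Pcolce at −0.34 ± 0.33 (log2 fold change ± SE). Lox was at −0.02 without control replicate 3 and −0.71 without control replicate 2, and Pcolce at −0.02 without high-sucrose replicate 2 and −0.66 without high-sucrose replicate 1. In the pulmonary artery Loxl2, a cross-linking enzyme of type IV collagen, was at 34.7, 45.7 and 23.3 CPM against 65.8, 127 and 128 in the mesenteric controls. The groups did not overlap, and the log2 fold change was −1.64 ± 0.37 (edgeR adjusted p = 0.341). Adamts14, a procollagen N-proteinase, was at 16.2, 15.3 and 7.73 CPM against 1.92, 7.68 and 2.69 (log2 fold change 1.66 ± 0.63, adjusted p = 0.551; 2.49 without mesenteric control replicate 2), and Pcolce was at −0.53 ± 0.23.

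Of the collagen receptors, 5 of 6 tested were higher with maternal sucrose, and 4 of 7 in the pulmonary artery. Ddr1, a receptor tyrosine kinase for collagen, was at 66.1, 91.6 and 54.9 CPM in the pulmonary libraries and 35.4, 16.7 and 45.1 in the mesenteric controls, with no overlap (log2 fold change 1.12 ± 0.40, edgeR adjusted p = 0.532). Itga1, the alpha-1 integrin chain that binds type IV collagen, was at 13.5, 22.1 and 1.95 CPM against 48.3, 44.2 and 30.2, again with no overlap (−1.73 ± 0.76, adjusted p = 0.596). Mrc2, the collagen uptake receptor, was at 212, 211 and 44.8 CPM against 77.7, 65.9 and 86.7. Both receptors Ddr1 and Mrc2 thus had high values in pulmonary replicates 1 and 2, while Mrc2 was lowest in pulmonary replicate 4. With maternal sucrose Itga1 was at 0.35 ± 0.36, Ddr1 at 0.19 ± 0.41 and Ddr2 at −0.38 ± 0.29. With single libraries left out these values ranged from −0.08 to 0.61, −0.13 to 0.50 and −0.59 to −0.12. The ends nearest to or past 0 were those without high-sucrose replicate 2 for Itga1, control replicate 2 for Ddr1 and control replicate 1 for Ddr2.

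The small leucine-rich proteoglycans bind to fibrils and regulate their width. All 7 tested were lower with maternal sucrose (median log2 fold change −0.42), and 3 were higher and 4 lower in the pulmonary artery (−0.55). Ecm2 was at 108, 152 and 136 CPM in the mesenteric controls and 67.3, 87.5 and 87.5 in the high-sucrose libraries. The groups did not overlap, and the log2 fold change was −0.71 ± 0.20 (edgeR adjusted p = 1.00). Fibromodulin (Fmod) was at −0.83 ± 0.47 and asporin (Aspn) at −0.26 ± 0.24. Fmod was at −0.27 without control replicate 1, its highest library, and Aspn at −0.08 without high-sucrose replicate 1. In the pulmonary artery Fmod was at −1.26 ± 0.50 and Aspn at −1.69 ± 0.83, or −0.72 for Fmod without mesenteric control replicate 1 and −2.71 for Aspn without pulmonary replicate 1, while Prelp was at 376, 428 and 42.9 CPM against 96.8 to 167 in the mesenteric controls (1.20 ± 0.77). The pulmonary values of Prelp lay on both sides of the controls, with replicate 4 lowest, and its log2 fold change was 0.77 without pulmonary replicate 2.

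Laminins, nidogens and agrin share the basement membrane with type IV collagen. Of these partners 8 of 12 tested were higher with maternal sucrose, with Lamb1 at 0.30 ± 0.26, Lama5 at 0.34 ± 0.31 and Agrn at 0.22 ± 0.22. Without control replicate 3 they were at 0.08, 0.66 and 0.44, and without control replicate 2 at 0.50, 0.14 and 0.12. Without high-sucrose replicate 2 Lama5 was at 0.20, and without control replicate 1 Agrn was at 0.11. In the pulmonary artery 4 of 13 were higher and 9 lower. Nid1, which links laminin to type IV collagen, was at 161, 193 and 89.3 CPM against 278, 236 and 382 in the mesenteric controls, a log2 fold change of −1.02 ± 0.37 (edgeR adjusted p = 0.537). Nid2, its relative, was at 0.62 ± 0.45, or 0.10 without pulmonary replicate 2 and 0.93 without mesenteric control replicate 2. Lamb3, a laminin chain known best from epithelia, was at 4.04, 4.95 and 21.0 CPM against 0.596, 0.436 and 0.557, a log2 fold change of 4.22 ± 0.83 (adjusted p = 0.267). Its highest value was in pulmonary replicate 4, the library with the highest lung epithelium markers, and its other pulmonary values were also above all mesenteric libraries. Lamb3 had only 9, 5 and 6 counts in the mesenteric controls and passed the count filter through the pulmonary libraries alone. The test of Lamb3 is therefore no support for a difference.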

How the data were processed

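The authors deposited 1 table per library with whole-number read counts per gene, not normalized. Per the labels' protocols, poly(A) RNA was enriched and primed at random with a second-strand mark. Per the submitters' processing notes the build was rn7, and the aligner, counting tool, annotation and strand setting were not given in the sources used here, so reads of overlapping antisense genes cannot be told apart. Promoter sequences are from RefSeq on GRCr8, joined by symbol, and no position on rn7 is used.

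Groups followed the labelled tissue and treatment, and treatment H was read as the sucrose group of the series' design text. Each comparison used its own 6 libraries, with edgeR 4.0.16 in R 4.3.3: filterByExpr, TMM scaling, robust dispersions, the quasi-likelihood test and Benjamini-Hochberg adjustment over all features. Levels are CPM, counts per 1000000 of totals scaled by TMM over the 9 libraries, and 1 CPM is about 10 to 15 counts. The SE of a log2 fold change is its size over the square root of F. The 5 chains below the filter, Col2a1, Col6a4, Col10a1, Col24a1 and Col25a1, were not tested. The test was run on simulated counts with the same spread set for every gene. That run does not show how the test performs at the spread of these libraries. In none of the 9 pairs of libraries within a group did counts agree within sampling noise (chi-square per degree of freedom 42.5 or more).

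Alternatives were other scalings, DESeq2 1.42.0, limma-voom 3.58.1, no filter, all 9 libraries in 1 fit, a replicate block and libraries left out. Named with values were the 4 chains of highest mean level in each class, every chain at an unadjusted p under 0.05, and the 3 partner genes of smallest p in each list and comparison. Other chains with a log2 fold change in the text were added after their values were seen. The members and lists were chosen with earlier results of these data known. Some chains and partners on the lists were not analysed here.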

Additional observations from a re-analysis of the deposited data

How the results depend on the processing

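With maternal sucrose no chain was called under any alternative run, and the median log2 fold change of the chains ranged from −0.09 to 0.13 with single libraries left out. For the pulmonary artery edgeR called 0 chains under every other scaling, filter, fit or single library left out. DESeq2 called 5, in a test that called 408 of all features, and 1 was called with mesenteric control replicate 2 and pulmonary replicate 4 both left out, an alternative chosen after seeing the data that called 105 of all features. The cause was not tested. By DESeq2 the log2 fold changes of Lamb3 (4.25, adjusted p = 4.67e-05) and Loxl2 (−1.63, adjusted p = 0.00986) passed too. Lamb3 entered the test only through its pulmonary counts, so its call is no support for a difference. With both libraries out, Adamts14 (2.77, edgeR adjusted p = 0.0435) and P3h2 (−1.68, edgeR adjusted p = 0.0403) passed. The median over the chains in the pulmonary artery ranged from −0.73 to −0.21 with single libraries left out.

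Signs turned for differences within their error. With single libraries left out, the sucrose log2 fold changes ranged from −0.67 to 0.36 for Col1a1, −0.44 to 0.18 for Col3a1, −0.30 to 0.14 for Col6a1 (0.0867 by limma-voom), −0.0789 to 0.61 for Itga1 and −0.13 to 0.50 for Ddr1, and the pulmonary one of Col1a1 from −0.65 to 0.38. Whether replicate numbers pair the libraries could not be settled. Correlations of deviations from the group means were 0.196, −0.307 and 0.114 for like numbers, and for the pulmonary artery 0.183 and −0.171 over 2 shared numbers. Unlike numbers gave −0.478 to 0.35, so values of this size cannot show or exclude a pairing. With the replicate block 0 chains were called in both comparisons. The block called 0 features with sucrose and 36 in the pulmonary artery. In the pulmonary block only numbers 1 and 2 occur in both groups. Mesenteric control replicate 3 and pulmonary replicate 4 therefore add nothing to its fold changes, which rest on the 2 shared numbers. On that basis the pulmonary median was −0.15, and the pulmonary log2 fold changes of Col1a1 and Col3a1 were 0.61 and 0.22. Chains under about 1 CPM rest on 15 counts or fewer a library, too few to show a difference.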

Other observations

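The chains differed widely in how far their levels spread over the 9 libraries. The highest library was 2.95 times the lowest for Col6a3 and 3.14 times for Col3a1, the type III chain. It was 65.4 times for Col13a1, whose lowest value was in mesenteric control replicate 2, and 175 times for Col11a1, whose lowest was in pulmonary replicate 1. These folds describe single libraries and were not tested.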
